A study of Mus musculus with 11 samples.

Results

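The genes described here are 35 listed genes of DNA replication and mitosis, taken as every array probe whose target name is one of their symbols. Of these, 32 were represented, by 56 probes, out of 18138 gene names and 25697 probes on the array. No probe carrying the symbol AURKB, KIF20A or MKI67 was analysed here, and Cdk1 stands under its older name CDC2A. The genes fall into 9 of replication (MCM2 to MCM7, PCNA, RRM1 and RRM2), 2 of thymidylate supply (TYMS and TK1) and 21 of mitosis with a probe. The question was whether replication and mitosis genes differed between the SKG and the BALBc ileum, and whether they did so alike.

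Illumina MouseRef-8 bead arrays measured RNA of the terminal ileum, with 1 array per mouse, in naive animals of 8 to 12 weeks. SKG mice have a BALB/c background and carry a point mutation that weakens Zap70, the kinase that relays signals of the T cell receptor. The mutation is in the germline and so in every tissue. BALBc mice, without the mutation, were the controls, and neither strain was treated. The 8 arrays compared here were SKG replicates 4 to 8 of batch 3, BALBc replicates 1 and 2 of batch 2, and BALBc replicate 3 of batch 3, batch being the submitters' own label. Batch 3 alone therefore held both strains, with 1 BALBc mouse in it.

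The 3 SKG arrays of batch 1 were left out, because their rows are out of step with the probe names: signals correlated by rank with the 8 arrays at 0.0768 to 0.0966, against 0.838 to 0.882 between batches 2 and 3. Median raw signals were 98.5 to 105.6 on the SKG arrays and 103.7 to 187.5 on the BALBc arrays, both arrays of batch 2 being the bright ones. Between 12445 and 14076 probes were above background on an array at a detection p under 0.05. SKG replicate 6 stood apart, with a median rank correlation of 0.940 to the other SKG arrays, against at least 0.9752 for each of the rest. Of the defining ileum markers, the bile acid binding protein gene FABP6 had raw signals of 9454 to 12224 in SKG and 10407 to 12326 in BALBc, and VIL1, the villin gene of the enterocyte brush border, was detected on every array. SLC10A2, the ileal bile acid transporter gene, was not well above background. A transcript level cannot check a point mutation, so no check of the labels comes from Zap70.

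In the gut wall, dividing cells are found mostly in the crypts, where stem and transit-amplifying cells renew the epithelium, and in lymphoid follicles, where B cells expand. Before S phase the MCM proteins are loaded on DNA as a ring-shaped helicase. During it, PCNA clamps the polymerases to the template while ribonucleotide reductase (RRM1 with RRM2), thymidylate synthase (TYMS) and thymidine kinase (TK1) supply nucleotides. Mitosis then runs on cyclin-dependent kinase CDK1 with its cyclins, on the Aurora and Polo kinases, and on the anaphase-promoting complex, which with CDC20 and UBE2C marks cyclins and other proteins for destruction. Transcripts of the first group are known to peak before those of the second, under E2F factors and under the DREAM, MYB and FOXM1 complexes.

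The promoters of the members are shown because both classes are known to differ in the elements they carry, and because MCM5 and PLK1, a replication and a mitosis gene, had the smallest p-values, while PCNA and UBE2C differed most between the batches among members with an entry. They come from RefSeq, build GRCm38.p6, and run from 250 bases before to 50 bases after the gene's start, 5′ to 3′ on the gene's strand. Capitals mark CCAAT boxes, CHR elements (TTTGAA or TTCGAA) and E2F sites (TTTCCCGC, TTTGGCGC, TTTCGCGC or TTTGCCGC), each searched on both strands. In Mcm5 the capitals that begin with TTTCGCGC are E2F matches of both strands that overlap, and in Ube2c a CCAAT and its reverse, ATTGG, overlap once. The windows are chr8:75109259-75109558 (+) for Mcm5, chr2:132253131-132253430 (-) for Pcna, chr7:122159185-122159484 (+) for Plk1 and chr2:164769679-164769978 (+) for Ube2c.
Mcm5: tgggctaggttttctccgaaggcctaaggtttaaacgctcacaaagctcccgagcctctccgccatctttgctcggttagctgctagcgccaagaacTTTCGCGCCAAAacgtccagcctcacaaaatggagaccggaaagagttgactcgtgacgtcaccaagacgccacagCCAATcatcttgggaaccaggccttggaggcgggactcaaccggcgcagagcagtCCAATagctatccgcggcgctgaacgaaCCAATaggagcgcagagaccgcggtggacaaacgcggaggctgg
Pcna: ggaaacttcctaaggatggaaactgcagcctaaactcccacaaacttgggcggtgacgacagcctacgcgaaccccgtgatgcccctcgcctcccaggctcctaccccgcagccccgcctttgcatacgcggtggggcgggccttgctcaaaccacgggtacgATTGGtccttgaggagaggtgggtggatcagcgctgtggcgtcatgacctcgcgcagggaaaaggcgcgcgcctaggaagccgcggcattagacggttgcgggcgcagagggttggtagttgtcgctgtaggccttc
Plk1: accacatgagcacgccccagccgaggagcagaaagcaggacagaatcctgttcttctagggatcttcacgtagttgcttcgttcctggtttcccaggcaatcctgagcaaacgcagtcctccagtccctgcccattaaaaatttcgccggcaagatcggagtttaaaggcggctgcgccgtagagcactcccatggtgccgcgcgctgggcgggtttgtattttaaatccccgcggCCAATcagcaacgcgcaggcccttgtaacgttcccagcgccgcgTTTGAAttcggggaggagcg
Ube2c: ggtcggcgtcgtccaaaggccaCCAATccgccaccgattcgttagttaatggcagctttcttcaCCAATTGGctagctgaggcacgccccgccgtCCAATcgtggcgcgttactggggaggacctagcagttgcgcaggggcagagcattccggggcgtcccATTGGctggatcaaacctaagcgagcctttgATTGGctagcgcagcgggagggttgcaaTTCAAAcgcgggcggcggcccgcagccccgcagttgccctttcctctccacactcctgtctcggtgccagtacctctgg

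Of the 32 members with a probe, 31 matched RefSeq's gene table by symbol and 1 by an older name. A promoter was at hand for 27, not for MCM4, CCNA2, TPX2, STMN1 and FOXM1. A CHR element, the site of the cell cycle genes homology region bound by DREAM and FOXM1 complexes, was in 14 of 17 mitosis promoters (82.4%) and in 2 of 8 replication promoters (25.0%, MCM2 and MCM7), against 19.4% of all 27025 promoters. An E2F site was in 4 of 8 replication promoters (MCM3, MCM5, MCM6 and MCM7) and in 1 of 17 mitosis promoters (5.88%, CDC2A), against 2.32% of all. A CCAAT box was in 8 of 8 replication and 15 of 17 mitosis promoters (88.2%), against 37.9% of all, and in neither of the 2 thymidylate supply promoters. These are matches of letters, not shown to be bound in these samples. Promoter letters and array values were not set against each other.

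Signals were corrected for background, quantile normalised and logged to base 2, and a probe was kept when its detection p was under 0.05 on at least 3 of the 8 arrays. That kept 13775 probes in all and 44 of the 56 member probes, which stand for 30 genes: 9 of replication, 2 of thymidylate supply and 19 of mitosis. BUB1, a spindle checkpoint kinase gene, and CCNB2, which encodes cyclin B2, were not above background on any array (lowest detection p 0.247 and 0.327). A gene stands by its kept probe of highest mean signal. Each difference is the log2 level in SKG less that in BALBc, fitted by limma with batch as a random block, so it weighs the batches and is not the difference of the plain group means.

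No replication or mitosis probe passed this test in either direction, although 26 of the 30 genes had a negative difference. Of the 44 member probes, 0 were lower in SKG and 0 were higher there (limma, adjusted p under 0.05), while 0.254% of all probes were called lower and 0.319% higher. At an unadjusted p under 0.05 were 8 of the 30 genes and 10 of the 44 member probes (22.7%), each with a negative difference, against 13.3% of all probes in either direction and 5.92% lower. The lowest adjusted p was 0.132. The median difference was −0.50 over the 30 genes, against 0.01 over all probes kept, of which 49.0% were below 0. The 9 replication genes had a median of −0.62, with 9 of 9 below 0. The 19 mitosis genes had a median of −0.39, with 15 below 0. TYMS differed by −0.04 and TK1 by −0.55. The replication median minus the mitosis median was −0.23, given without a test. Without BALBc replicate 3 it was 0.04 and the median of the 30 genes −0.22, against 0.15 over all probes. With no batch block and all 8 arrays the replication median minus the mitosis median was −0.0095. The distance between the classes thus depends on BALBc replicate 3 and on how batch is fitted. These are levels in a bulk tissue, so fewer dividing cells and less RNA per dividing cell cannot be told apart. Other fits made calls. With batch as a fixed block 2 member probes were lower, and with no batch block 1 was (1.98% of all probes). With array weights 14 member probes were lower and 8 higher, against 23.6% and 34.9% of all probes. Without BALBc replicate 3, where each batch holds 1 strain, 13 were lower and 5 higher, against 16.4% and 21.4% of all probes. Without SKG replicate 6 there were 2 lower (2.42% of all probes). The authors' deposited table, which held only 15 of the 30 genes, also gave 2 lower (1.29% of its 5045 probes).

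**Figure D1:**
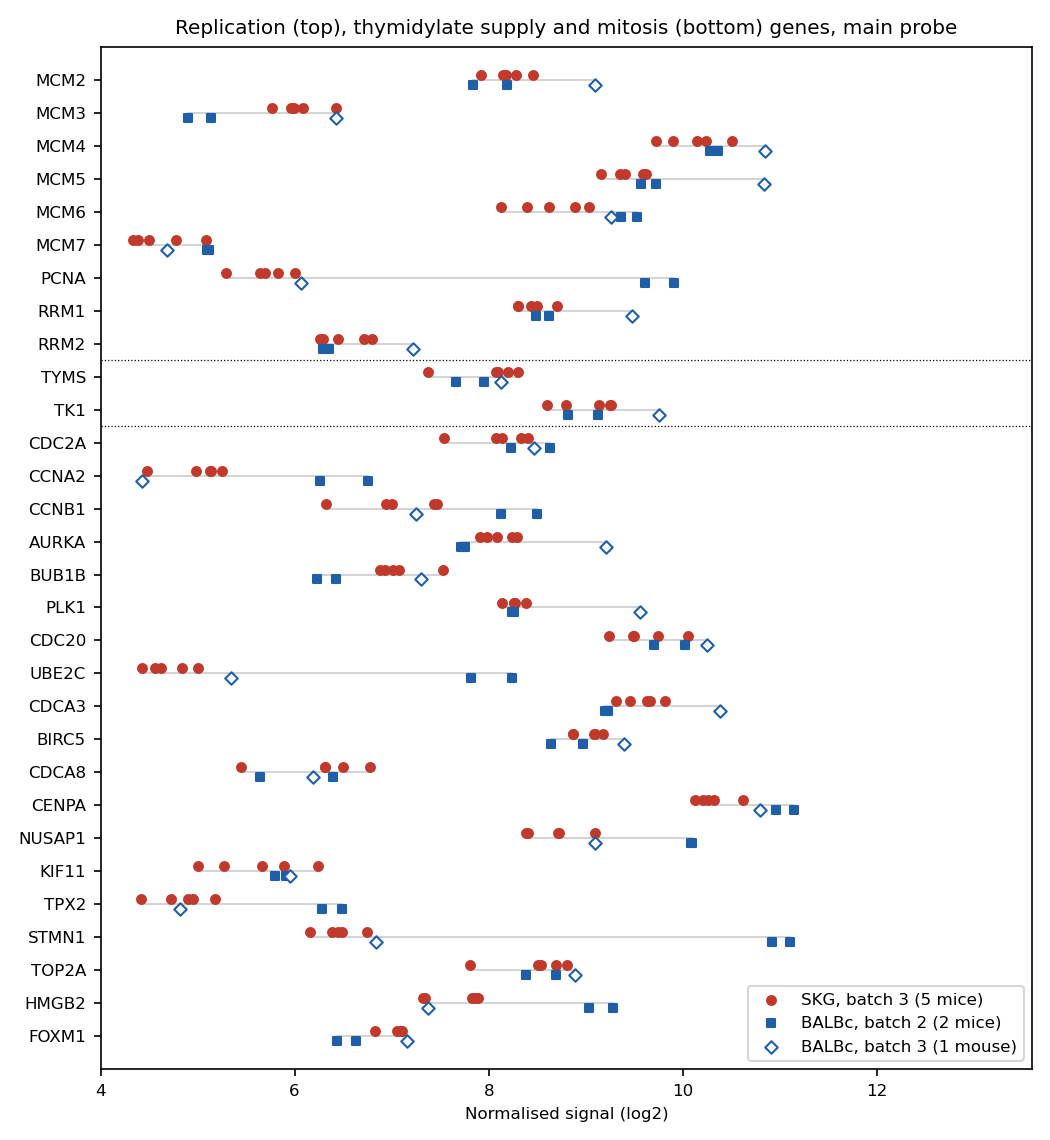
Normalised log2 signal (x axis) of the main probe of the 30 kept genes (rows), each point 1 mouse: SKG of batch 3 (red circles, 5 mice), BALBc of batch 2 (blue squares, 2 mice) and BALBc of batch 3 (open diamonds, 1 mouse). The grey line spans all 8 values. For PLK1, MCM5 and AURKA the open diamond lies to the right of all other points, and for STMN1, PCNA and UBE2C both squares lie far to the right of the other 6 points.

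Among the helicase genes MCM5 had the smallest p. MCM5 encodes 1 of the subunits of the MCM ring. Its normalised log2 signal was 9.15, 9.35, 9.59, 9.40 and 9.62 in SKG replicates 4 to 8, against 9.72, 9.57 and 10.84 in BALBc replicates 1 to 3. The SKG values lay close together, BALBc replicate 3 stood far above them, and BALBc replicate 2 lay within their range. The SKG mean was 9.42 ± 0.19 (SD, n = 5), against a BALBc mean of 10.05 ± 0.70 (SD, n = 3). The fitted difference was −1.11 (SE 0.29, 95% interval −1.76 to −0.47) and missed the threshold (limma adjusted p = 0.132). With batch as a fixed block, which takes the strain difference from batch 3, MCM5 was lower by −1.42 and passed (limma adjusted p = 0.0497). Without BALBc replicate 3 the difference was −0.22 (limma adjusted p = 0.397), so the size of the value rests on that mouse.

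The other helicase genes had negative differences too, none past the threshold. MCM2 differed by −0.62 (SE 0.29), MCM4 by −0.61 (SE 0.28), MCM6 by −0.69 (SE 0.30), MCM7 by −0.17 (SE 0.28) and MCM3 by −0.02 (SE 0.33). For MCM4 and MCM2 the BALBc mouse of batch 3 (10.85 and 9.09) was above every other array. For MCM3 it was at 6.42, beside SKG values of 5.76 to 6.43, and both BALBc mice of batch 2 were lower, at 5.13 and 4.90. By the main probe, MCM6 was the 1 helicase gene whose SKG values (8.13 to 9.03) all lay below the BALBc values (9.26 to 9.53). By the other kept probes of MCM6 the strains overlapped. Its 3 kept probes differed within batch 3 by −0.64, −0.49 and 0.06. The probe at 0.06 was above background in 1 of the 5 SKG mice and not in BALBc replicate 3. The probe of MCM7 was above background in 1 of the 5 SKG and 2 of the 3 BALBc mice.

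PCNA, the sliding clamp gene, had the lowest fitted value of the replication class (−1.32, SE 0.61, limma adjusted p = 0.384), and a wide interval of −2.66 to 0.02. Its raw signal was 109.9, 114.1, 102.9, 124.3 and 116.1 in SKG replicates 4 to 8, against 1868, 1924 and 125.0 in BALBc replicates 1 to 3. The BALBc mouse of batch 3 was thus near the SKG mice, and both BALBc mice of batch 2 stood apart. Within batch 3 the PCNA difference was −0.37, and all 5 SKG values (5.30 to 6.00) lay below that mouse at 6.06. PCNA was picked for description after its values were seen, as were STMN1, HMGB2, CCNA2, AURKA and NUSAP1 below.

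RRM1, the large subunit gene of ribonucleotide reductase, had the smallest p of the nucleotide supply genes. It gave 8.50, 8.30, 8.31, 8.71 and 8.44 in SKG replicates 4 to 8, against 8.62, 8.49 and 9.47 in BALBc replicates 1 to 3. SKG replicate 7 and replicate 4 overlapped the BALBc mice of batch 2, and BALBc replicate 3 was again the highest. The difference was −0.79 (SE 0.26, limma adjusted p = 0.227), and −1.02 within batch 3. RRM2, the small subunit gene, differed by −0.49 (SE 0.28), with −0.72 within batch 3 and 6.26 to 6.80 in SKG against 6.29 to 7.22 in BALBc.

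PLK1, the Polo kinase gene of spindle assembly, was the mitosis gene with the smallest p. Its values were 8.26, 8.27, 8.39, 8.26 and 8.13 in SKG replicates 4 to 8, against 8.26, 8.24 and 9.56 in BALBc replicates 1 to 3. BALBc replicates 1 and 2 lay among the SKG mice, and BALBc replicate 3 alone was higher. The difference was −0.96 (SE 0.29, limma adjusted p = 0.182), which missed the threshold. Within batch 3 it was −1.30, and this passed with batch as a fixed block (limma adjusted p = 0.0459). Without BALBc replicate 3 it was 0.02. PLK1 and MCM5 were thus the 2 member probes of 44 (4.55%) called lower with the fixed block, against 0.312% of all probes. Both calls rest on 1 BALBc mouse, and limma takes its spread from the other arrays.

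AURKA, the Aurora A kinase gene of the centrosome, also had its highest value in BALBc replicate 3. It gave 8.24, 7.91, 8.29, 7.98 and 8.09 in SKG replicates 4 to 8, against 7.71, 7.76 and 9.21 in BALBc replicates 1 to 3. BALBc replicates 1 and 2 lay below every SKG mouse, unlike in PLK1, where they lay among them. The difference was −0.73 (SE 0.31, limma adjusted p = 0.348), with −1.11 within batch 3 and 0.37 without BALBc replicate 3. BUB1B, which encodes the checkpoint protein BubR1, differed by 0.03 (SE 0.29), with 6.88 to 7.52 in SKG and 6.23 to 7.30 in BALBc.

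Of the cyclins and CDK1, CCNB1 had the smallest p. CCNB1 encodes cyclin B1, the partner of CDK1 at entry into mitosis. It gave 7.01, 6.94, 6.32, 7.47 and 7.43 in SKG replicates 4 to 8, against 8.50, 8.13 and 7.25 in BALBc replicates 1 to 3. By this probe BALBc replicate 3 lay within the SKG range, SKG replicate 6 was the lowest, and the difference was −0.49 (SE 0.38, limma adjusted p = 0.640). The second kept probe of CCNB1 gave 6.59 to 6.94 in SKG, against 8.95, 8.79 and 7.15 in BALBc replicates 1 to 3. By that probe the groups did not overlap, and the difference was −0.76 (SE 0.34, limma adjusted p = 0.365). CDC2A, the CDK1 gene, differed by −0.36 (SE 0.30), with 7.54 to 8.40 in SKG and 8.23 to 8.63 in BALBc. CCNA2, the cyclin A2 gene, went the other way within batch 3. It gave 4.48 to 5.25 in SKG, 6.26 and 6.76 in BALBc replicates 1 and 2, and 4.43 in BALBc replicate 3.

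UBE2C, the ubiquitin-conjugating enzyme of the anaphase-promoting complex, had the smallest p of its group. It gave 5.01, 4.84, 4.43, 4.56 and 4.62 in SKG replicates 4 to 8, against 7.81, 8.24 and 5.34 in BALBc replicates 1 to 3. The groups did not overlap, but the probe was above background in 1 of the 5 SKG mice, and BALBc replicate 3 stood nearer to SKG than to the other BALBc mice. The difference was −1.34 (SE 0.48, limma adjusted p = 0.256), with −0.65 within batch 3. With no batch block UBE2C was lower by −2.44 and passed (limma adjusted p = 0.0369). CDC20, the activator of that complex, differed by −0.54 (SE 0.29), and CDCA3, an adaptor for cell cycle protein destruction, by −0.51 (SE 0.29). Both had their highest value in BALBc replicate 3 (10.25 and 10.38).

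CENPA, the histone H3 variant of the centromere, had the smallest p of the spindle and kinetochore genes. It gave 10.32, 10.21, 10.26, 10.13 and 10.62 in SKG replicates 4 to 8, against 10.96, 11.14 and 10.80 in BALBc replicates 1 to 3. The groups did not overlap, and CENPA differed alike with all arrays (−0.56, SE 0.24, limma adjusted p = 0.344) and within batch 3 (−0.49). NUSAP1, which encodes a spindle protein, differed by −0.69 (SE 0.30), with 8.39 to 9.10 in SKG, 10.10 and 10.09 in BALBc replicates 1 and 2, and 9.10 in BALBc replicate 3. BIRC5 (survivin) and CDCA8 (borealin), both of the chromosomal passenger complex, differed by −0.22 and 0.13. KIF11, a spindle motor gene, differed by −0.32 and TPX2, a spindle assembly factor gene, by −0.39.

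STMN1, which encodes the tubulin-binding protein stathmin, had the lowest fitted value of all 30 genes (−1.46, SE 0.67, limma adjusted p = 0.376), but it did not pass and its arrays split by batch. Its raw signal was 116.0, 130.8, 126.6, 139.3 and 139.4 in SKG replicates 4 to 8, against 4305, 3966 and 154.1 in BALBc replicates 1 to 3. All 6 arrays of batch 3 were dim and both arrays of batch 2 bright, and within batch 3 the difference was −0.39.

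TOP2A, the DNA topoisomerase gene of chromosome condensation, had the smaller p of the chromatin genes. It gave 8.54, 8.51, 7.80, 8.81 and 8.69 in SKG replicates 4 to 8, against 8.69, 8.38 and 8.89 in BALBc replicates 1 to 3, and the groups overlapped (−0.33, SE 0.32). HMGB2, a chromatin protein gene, differed by −0.18 (SE 0.38), with 7.33 to 7.89 in SKG, 9.28 and 9.04 in BALBc replicates 1 and 2, and 7.37 in BALBc replicate 3. FOXM1, the gene of the transcription factor that drives many of the mitosis genes, gave 6.83, 7.10, 7.06, 7.09 and 7.11 in SKG, against 6.63, 6.44 and 7.15 in BALBc. Its difference was 0.04 (SE 0.24, limma adjusted p = 0.962). Its second kept probe differed by −0.28.

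Within batch 3, the BALBc mouse had a higher signal than all 5 SKG mice for 19 of the 30 genes. By probe this held for 27 of the 44 member probes (61.4%), against 21.3% of all probes, and the reverse held for 1 member probe (2.27%, CCNA2), against 22% of all. By class it held for 7 of 9 genes of replication, 11 of 19 of mitosis and 1 of 2 of thymidylate supply, with no test between the classes. Among the other lists it held for 23 of 35 replication machinery, 20 of 38 mitotic machinery, 3 of 7 G1 and 5 of 12 crypt stem genes. It held for 10 of 10 T cell and 6 of 6 smooth muscle markers, and for 0 of 11 CDK inhibitors and pocket proteins. The median within-batch difference was −0.41 over the 30 genes, −0.72 for replication and −0.37 for mitosis, against 0.02 over all probes. With 1 BALBc mouse, this comparison has no spread of its own on the BALBc side. The probes of 1 array move together, so the counts describe that mouse and not the strain.

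**Figure D2:**
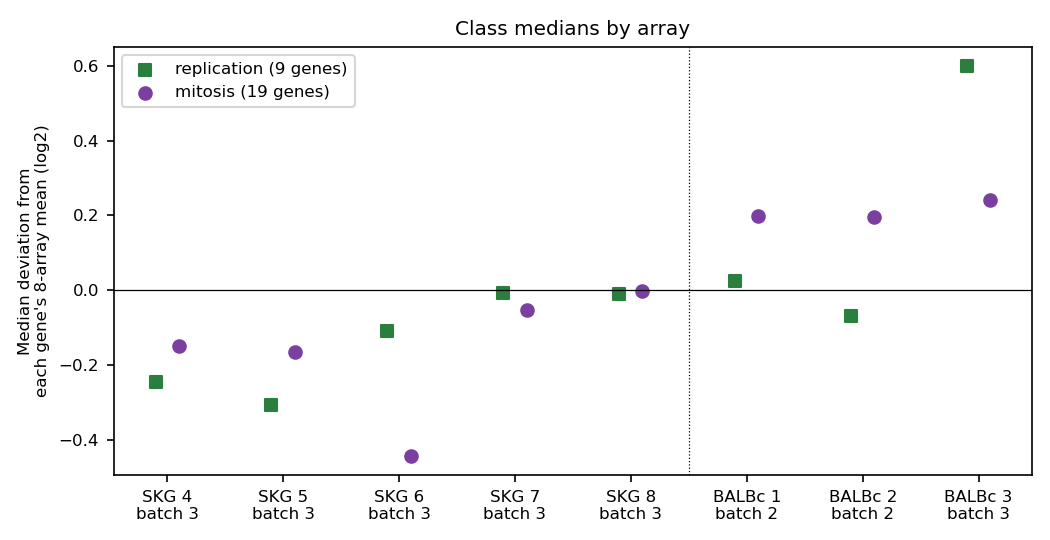
Median over the genes of a class of the deviation from each gene's mean over the 8 arrays (log2, y axis), for replication (green squares, 9 genes) and mitosis (purple circles, 19 genes), by array (x axis). Replication stands at 0.60 in BALBc replicate 3 and between −0.31 and 0.03 elsewhere, while mitosis is near 0.2 in all 3 BALBc mice.

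The arrays differed in how the classes stood in them. The median deviation of the replication genes from their mean over the 8 arrays ran from −0.31 to −0.01 in the SKG mice. In BALBc it was 0.03, −0.07 and 0.60 for replicates 1 to 3, so replicate 3 was high and the batch 2 mice lay near the upper SKG values. The median deviation of the mitosis genes ran from −0.44 to −0.002 in the SKG mice, and was 0.20, 0.20 and 0.24 in the BALBc mice. For mitosis the 3 BALBc mice thus lay above all SKG mice. The lowest mitosis value was that of SKG replicate 6. That mouse was the lowest of the 5 SKG mice for 21 of 44 member probes (47.7%), against 34.9% of all probes. Without it MCM5 (−1.28) and PLK1 (−1.13) were lower and passed (limma adjusted p = 0.0268 and 0.0314).

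Over both batches the strains overlapped for most members. All SKG values lay below all BALBc values for 7 of 44 member probes (15.9%), against 5.25% of all probes. By gene these were 5 of 30 by the main probe: MCM6, PCNA, UBE2C, CENPA and STMN1. For 0 member probes did all SKG values lie above all BALBc values, against 10% of all probes.

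A comparison within BALBc, batch 2 (2 mice) against batch 3 (1 mouse), gave larger differences for some members than the strain comparison did, in both directions. It was added after the data were seen and takes its spread from all 8 arrays. At a limma adjusted p under 0.05, 8 member probes were higher in batch 2 (18.2%, against 11.2% of all probes) and 9 lower (20.5%, against 12% of all probes). By gene 6 were higher and 7 lower, from −1.47 for AURKA to 4.17 for STMN1. The median batch difference was −0.90 for the replication genes and −0.10 for the mitosis genes, against −0.14 over all probes.

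The genes that passed as higher in batch 2 were 5 of the 19 of mitosis and 1 of the 9 of replication, with no test between the classes. STMN1 was 18.1-fold higher there than in batch 3 and PCNA 13.0-fold, which put them 26th and 92nd of 13775 probes by that difference. UBE2C was 6.45-fold and HMGB2 3.46-fold higher. CCNA2 and TPX2 were higher too, and neither was above background in BALBc replicate 3. The genes lower in batch 2 were of both classes: AURKA (−1.47), MCM3 (−1.41), PLK1 (−1.31), MCM5 (−1.20), CDCA3 (−1.17), MCM2 (−1.08) and RRM1 (−0.92). Each named here passed that test. Probes of 1 gene could disagree: for MCM6 the batch difference ran from −0.36 to 2.08 over 3 probes, and for CDC20 from −1.49 to 0.43 over 4. In both genes the highest value came from a probe above background in 1 of the 5 SKG and 2 of the 3 BALBc mice. A difference between the batches and a difference between the BALBc mice themselves cannot be told apart, since each mouse is in 1 batch.

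**Figure D3:**
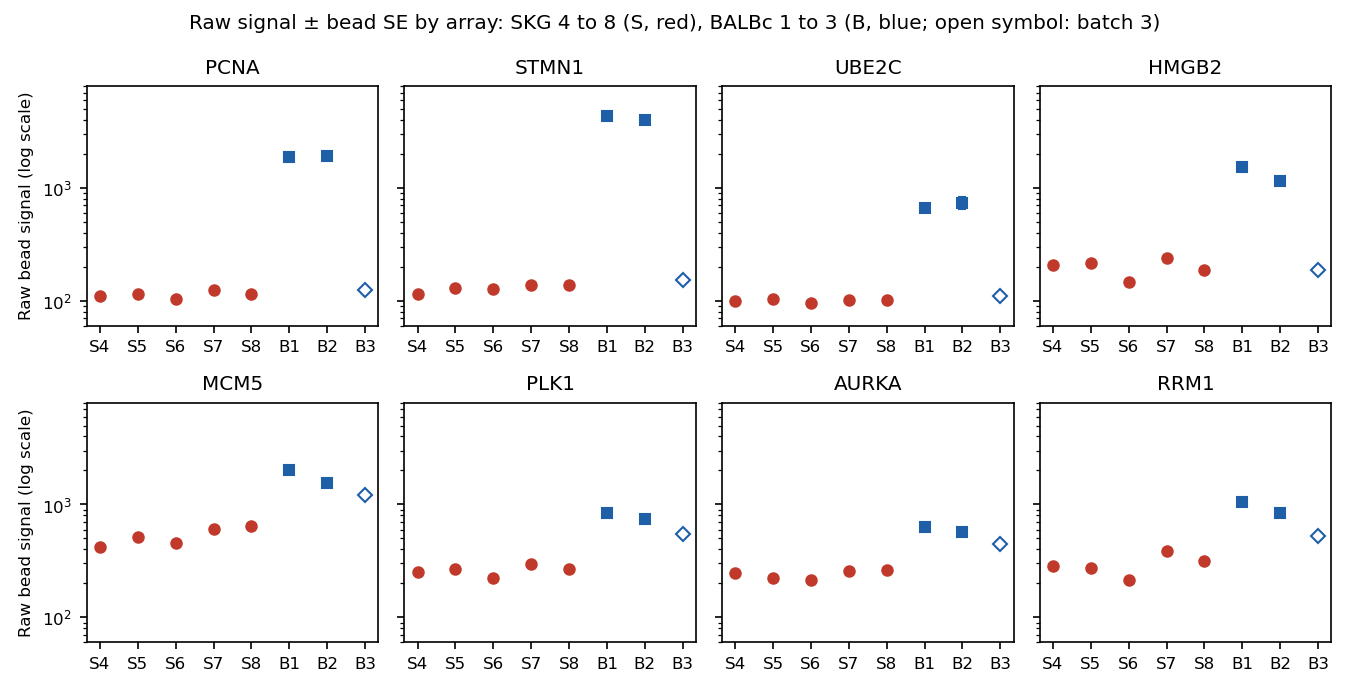
Raw bead signal (log scale, y axis) with its standard error over beads, mostly smaller than the symbol, by array (x axis: SKG replicates 4 to 8 as S, red; BALBc replicates 1 to 3 as B, blue, open for batch 3). In the upper row PCNA, STMN1, UBE2C and HMGB2 are high in both batch 2 mice and near the SKG level in BALBc replicate 3. In the lower row MCM5, PLK1, AURKA and RRM1 are above all SKG values in each of the 3 BALBc mice.

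The raw signal showed 1 side of this split. For 44 of 44 member probes both batch 2 arrays had a higher raw signal than BALBc replicate 3, as for 98.3% of all probes, so the negative batch differences appear only after normalisation. HMGB2 had 208.4, 216.7, 147.9, 240.7 and 187.9 in SKG replicates 4 to 8, against 1526, 1147 and 186.1 in BALBc replicates 1 to 3. MCM5 had 420.9, 512.5, 459.2, 600.5 and 645.6 in SKG, against 2011, 1554 and 1210 in BALBc. In HMGB2 the BALBc mouse of batch 3 was at the SKG level, and in MCM5 it was above every SKG value. The raw batch 2 values of MCM5 were above that mouse's, and the normalised ones below it. AURKA likewise had raw signals of 629.6 and 571.5 in BALBc replicates 1 and 2 and 449.4 in BALBc replicate 3. Over beads of 1 probe the relative standard error of the member signals was 1.64 to 12.7% (median 3.77%, with 19 to 55 beads), which covers the spread over beads and not that between mice.

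**Figure D4:**
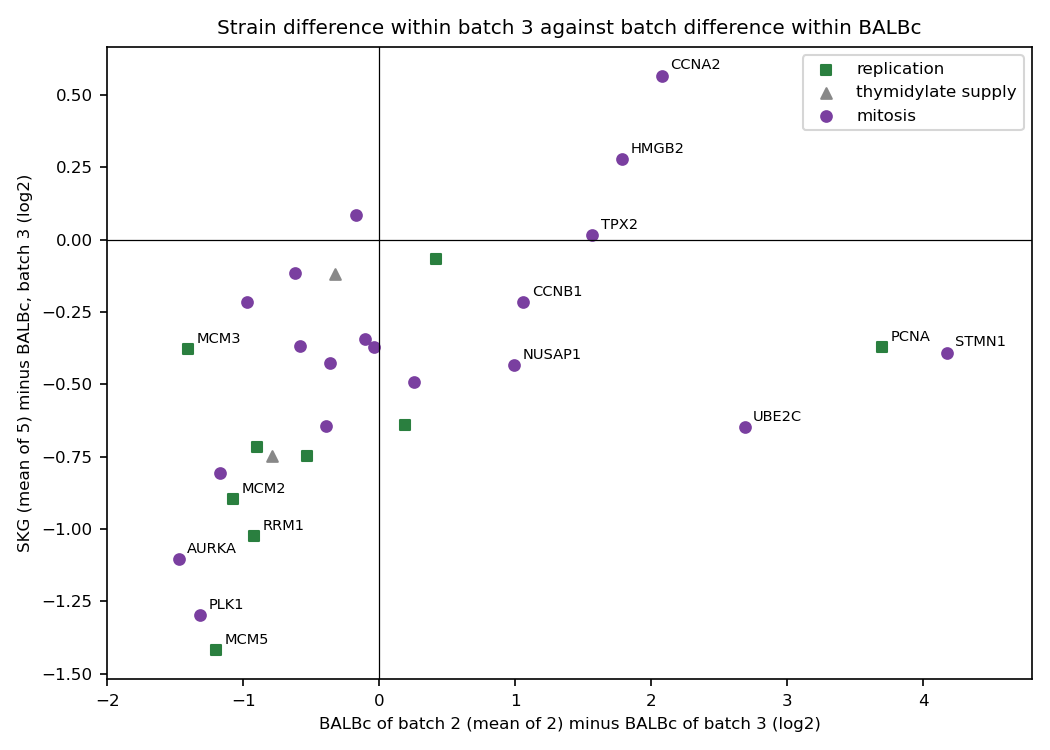
Difference between SKG (mean of 5) and BALBc replicate 3 within batch 3 (log2, y axis) against the difference between BALBc of batch 2 (mean of 2) and BALBc of batch 3 (log2, x axis), 1 point per gene, by class. Both axes use BALBc replicate 3, so their relation is not a result. MCM5, PLK1 and AURKA sit at the lower left, STMN1, PCNA and UBE2C far to the right, and CCNA2 at the top.

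Other genes of the cell cycle, listed beside the members and chosen with earlier results known, are given by list. The lists of replication machinery, mitotic machinery and G1 cyclins had negative medians, and the lists of inhibitors and of E2F and MYB factors did not. Of 35 kept genes of the replication machinery 31 were below 0 (median −0.41) and 0 passed. At an unadjusted p under 0.05 were 6 of the 35, each with a negative difference. Of all probes 5.92% were at that p and lower, and 13.3% in either direction. UHRF1, which brings the maintenance methylase to replicated DNA, differed by −1.06 (SE 0.29, limma adjusted p = 0.142), and DNMT1, that methylase, by −0.82 (SE 0.23). Of 38 kept genes of the mitotic machinery 33 were below 0 (median −0.36) and 0 passed. At an unadjusted p under 0.05 were 6 of the 38, again each with a negative difference. SPC24, a kinetochore gene, differed by −0.86 (SE 0.27) and KIF15, a spindle motor gene, by −0.67 (SE 0.22). These 4 genes had no overlap between the strains and differed within batch 3 by −0.91, −0.79, −0.81 and −0.63.

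Among G1 cyclins and their kinases 5 of 7 were below 0 (median −0.41), and CCND2, which encodes cyclin D2, passed. CCND2 averaged 8.87 ± 0.41 in SKG (SD, n = 5), against 10.45 ± 0.24 in BALBc (SD, n = 3), with no overlap, and was lower by −1.74 (SE 0.32, limma adjusted p = 0.0455). With batch as a fixed block it differed by −1.84 and did not pass (limma adjusted p = 0.0608). Of the CDK inhibitors and pocket proteins 4 of 11 were below 0 (median 0.14) and 0 passed, with 1 at an unadjusted p under 0.05. BTG2, an antiproliferative gene that was not well above background on any BALBc array, differed by 0.66 and CDKN1A, the p21 gene, by 0.41. Of the E2F and MYB factors 5 of 10 were below 0 (median 0.03) and 0 passed, with 1 at an unadjusted p under 0.05. E2F3 differed by 0.86 (SE 0.26) and E2F6 by −0.31.

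Markers of cells in which the members could be expressed are given by list, and their part in the differences was not tested. Only the T cell list held genes that passed, and the crypt stem, germinal centre B, B and plasma cell lists held 0. Of 12 crypt stem cell markers 11 were below 0 (median −0.31), and their summed normalised signal was 7678 to 9588 in SKG and 9914 to 12482 in BALBc. Of 10 kept T cell markers 10 were below 0 (median −1.83) and 2 passed, ITGAE and CD6. The sums of that list were 497.7 to 1069 in SKG and 1885 to 3629 in BALBc. CD247 and CD8A had no probe above background on at least 3 arrays and were not kept. Of 6 kept germinal centre B cell markers 5 were below 0 (median −0.31, sums of 3148 to 5052.5 in SKG and 3599 to 4148 in BALBc). GCET2, RGS13 and MYBL1 were not kept. Of 6 kept B cell markers 6 were below 0 (median −0.30), with sums of 550.05 to 1929.6 in SKG and 281.2 to 1823 in BALBc. MS4A1, PAX5 and CR2 were not kept. Of 6 kept plasma cell markers 5 were below 0 (median −0.48, sums of 7176 to 9168 in SKG and 8572 to 10108 in BALBc). Their mean log2 level was 7.82 to 8.35 in SKG and 8.56 to 8.77 in BALBc. IGJ differed by −1.86, TNFRSF17 by −1.36 and SDC1 by 0.88, each with no overlap between the strains. DERL3 was not kept.

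Of 6 smooth muscle markers 6 were below 0 (median −0.61), with sums of 19769 to 27945 in SKG and 21848 to 36688 in BALBc, the highest being BALBc replicate 3. For markers of the mature epithelium 0 passed, and the list medians were enterocyte 0.13 (6 genes), Paneth cell 0.16 (5 genes), goblet cell 0.03 (4 genes) and general epithelium 0.0009 (4 genes). Single markers went both ways. APOA4, an apolipoprotein gene of enterocytes, differed by 1.85 (limma adjusted p = 0.0794), with all SKG values above all BALBc values. LYZ1 differed by 0.70 and MMP7 by −0.86, both Paneth cell genes, and among goblet cell genes SPDEF differed by 0.47 and AGR2 by −0.54. BALBc replicate 3 had the highest sum also of the T cell (3629), replication machinery (17416) and mitotic machinery (8924) lists. The SKG maxima of these were 1069, 13564 and 6503. The same held for the G1 cyclins and their kinases (9657, SKG maximum 5770) and the E2F and MYB factors (4072.5, SKG maximum 3810). For the E2F and MYB factors it held for the sum only. Their mean log2 level was 8.1242 in BALBc replicate 3, below the 8.1244 to 8.2502 of the SKG mice.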

How the data were processed

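Total RNA of ileum, 1 mouse per array, was measured on 1-colour bead arrays. Groups, replicate numbers and batches came from the sample descriptions, and each sample is a separate mouse per the labels. The deposited signal per probe is an intensity, per the file headers an export of GenomeStudio 1.9.0 that was not normalised, and the bead standard deviation is deposited as an intensity too. The deposited detection column is a fraction, taken as 1 minus the detection p. The deposited bead numbers are counts and served for bead errors and a check of row order. A table of 5045 probes that the authors deposited, its scale taken as log2, served as an alternative only. How it was centred is unknown here. The medians of its SKG columns (replicates 4 to 8) were 0.0476, 0.0488, 0.0196, 0.0703 and 0.0457, and those of its BALBc columns (replicates 1 to 3) were 0.186, 0.152 and 0.00801. The submitters' processing notes also name limma, with no role.

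The 3 arrays of batch 1 entered no fit. The correlation of bead numbers by row was 0.00568 between batch 1 and the 8 arrays used, and 0.473 between batches 2 and 3. Background correction (normexp, from detection p, offset 16), quantile normalisation and log2 followed neqc (limma 3.58.1, R 4.3.3, statmod 1.5.0). A probe was kept if at least 3 arrays had it at a detection p under 0.05. limma compared SKG with BALBc over all kept probes, two-sided, with batch as a random block (consensus correlation 0.545), Benjamini-Hochberg adjustment and a threshold of 0.05. The precision of every value is limited by the 5 SKG and 3 BALBc arrays. The fits with batch as a random and as a fixed block were run on simulated data. The simulated strain differences were larger than any fitted for a member with the random block, so differences of that size were not covered.

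The members, lists and tests were chosen with earlier results of these data known. Values in every mouse were given for members past the threshold and, per role, for the kept member with the smallest p. Of other cell cycle lists, genes past the threshold or the 2 with the smallest p were named. Alternatives were batch as a fixed block, no block, batch 3 alone, other scalings, offsets and filters, array weights, the authors' table, the mean over a gene's probes, and each array left out. The comparison of batches within BALBc was chosen after seeing the data. A marker of 1 cell type list is not reported here.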

Additional observations from a re-analysis of the deposited data

Results flagged for a closer look

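In 2 of the 30 genes, 1 SKG mouse stood far from the other 4 by Dixon's test. TYMS had 7.3752 in SKG replicate 6, and the next SKG value was 8.0796, a gap of 0.761 of the whole SKG range. FOXM1 had 6.8309 in SKG replicate 4, and the next was 7.055, a gap of 0.806 of the range. Chance flags about 1 in 20 groups, so 2 of 30 is near that.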

How the results depend on the processing

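No paired analysis was possible, because each array is a separate mouse and the labels pair no SKG mouse with a BALBc mouse. The 44 probes higher in SKG became 29 with batch as a fixed block, 428 with no block, 6 in batch 3 alone, 102 with 75th percentile scaling, 26 with cyclic loess, 81 with no filter, 4805 with array weights and 10 in the authors' table. The 35 lower probes became 273 with no block, 3250 with array weights and 65 in the authors' table. Leaving out 1 array gave 8 to 2953 higher and 21 to 2256 lower, with 455 and 334 without SKG replicate 6, and 2953 and 2256 without BALBc replicate 3. Member probes went to 8 higher and 14 lower with array weights. Lower member probes were 2 with the fixed block, 1 with no block and 2 in the authors' table (MCM5 and PLK1, which also passed without SKG replicate 6). That table held only 15 of the 30 genes. Leaving out 1 array gave 0 to 5 higher and 0 to 13 lower, both highest without BALBc replicate 3, where no batch holds both strains and strain and batch cannot be told apart. The median of the 30 genes was −0.17 with array weights and −0.55 to −0.22 over arrays left out. The replication median was −0.39 with no block, −0.23 with array weights and −0.71 to −0.22 over arrays left out, −0.22 being without BALBc replicate 3. The replication median minus the mitosis median was −0.0095 with no block, 0.018 with array weights and −0.43 to 0.037 over arrays left out (−0.43 without SKG replicate 6, 0.037 without BALBc replicate 3). Reversed and past the threshold were MCM3 (1.065 with array weights, and −0.15 to 1.03 over arrays left out, the highest without BALBc replicate 3), CCNA2 (−1.52 with array weights, and −1.52 to 0.38 over arrays left out, the lowest without BALBc replicate 3), TYMS (0.43) and CDCA3 (0.39), both with array weights. Of 551 single-gene values over 19 alternatives 37 passed, and 61 changed sign, in 17 genes, while 13 genes stayed below 0 throughout. The median of all probes was 0.165 with 75th percentile scaling, 0.147 with array weights and 0.152 without BALBc replicate 3, and 27, 18 and 18 of the 30 genes were below 0 there. For these changes the cause was not tested. Low signals limit UBE2C, MCM7, CCNA2 and TPX2, which were not above background on every array.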
